A study of Mus musculus with 4 samples.

Results

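The pocket proteins, the MuvB core, the Myb family and Foxm1 decide when the genes of the cell division cycle are silent and when they are transcribed. The 10 genes described here are Rb1, Rbl1 and Rbl2 (pRB, p107 and p130), the MuvB subunits Lin9, Lin37 and Lin54, the Myb family members Myb, Mybl1 and Mybl2, and Foxm1. They were taken by name, with every probe that carries one of these symbols, and make up 10 of 19886 genes with a symbol on the array. Together they have 19 of 41174 non-control probes.

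The cells were primary mouse embryonic fibroblasts of wild-type C57BL/6 origin, which leave the cell cycle in low serum and enter it again when serum is returned. Cells received 60 nM of a negative control siRNA or of an siRNA against Xpo5, the gene of Exportin-5, which carries microRNA precursors out of the nucleus. Both groups were left for 12 h, held for 48 h in medium with 0.2% fetal serum and then given 20% serum for 24 h with a second dose of the same siRNA. All arrays therefore come from re-fed cells, and no starved or untransfected cells are part of the comparison. Each group held 2 arrays, numbered 1 and 2, from the 2 independent experiments that the series describes, and total RNA of each sample was labelled with 1 dye on its own array. Neither the embryos behind each experiment nor the number of siRNA sequences is stated in the sources used here, and every p-value rests on how far these 4 samples scatter, which may be technical.

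In quiescent cells p130 and p107, with the repressor E2F4 or E2F5 and a DP partner, join the MuvB core to form the DREAM complex, which holds cell cycle genes silent. As cells approach S phase, cyclin-dependent kinases phosphorylate the pocket proteins, the activator E2F proteins are freed from pRB, and MuvB is released from p130. MuvB then binds B-MYB, the product of Mybl2, and later FOXM1, and this form switches on genes of G2 and mitosis. Genes with an E2F site near the start tend to peak around the entry into S phase, whereas genes with a CHR element tend to peak in G2 and mitosis. Mybl2, Rbl1 and Foxm1 are themselves cell cycle genes.

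Promoter sequence from RefSeq (GRCm38.p6) was held for 6 of the 10 genes, in 7 windows that run from 250 bases before to 50 bases after a start. Rb1, Lin9, Mybl1 and Foxm1 had no entry. The 100 bases before the start are shown for the 3 genes with an E2F type motif close to it, Mybl2, Myb and Rbl1, and for Rbl2, which had none in its window. The lines give the strand of the gene from 5′ to 3′, and capitals mark the motif. Mybl2 lies at chr2:163054535-163054634 on the plus strand, Myb at chr10:21160985-21161084 on the minus strand, Rbl1 at chr2:157204535-157204634 on the minus strand and Rbl2 at chr8:91069957-91070056 on the plus strand.
Mybl2: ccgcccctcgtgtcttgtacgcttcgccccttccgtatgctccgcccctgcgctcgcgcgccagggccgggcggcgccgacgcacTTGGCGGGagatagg
Myb: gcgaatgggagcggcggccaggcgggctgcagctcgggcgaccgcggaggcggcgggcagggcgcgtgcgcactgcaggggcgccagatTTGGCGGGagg
Rbl1: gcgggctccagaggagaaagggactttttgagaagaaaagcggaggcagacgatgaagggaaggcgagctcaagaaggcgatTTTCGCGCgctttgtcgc
Rbl2: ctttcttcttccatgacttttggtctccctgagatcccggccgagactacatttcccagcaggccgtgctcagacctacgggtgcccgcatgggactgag

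Mybl2 and Myb carried the same 8 letters, TTGGCGGG, with the first base at -15 and -11 from the start, and Rbl1 carried TTTCGCGC with its first base at -18. Both strands were searched. TTGGCGGG was present in 0.974% of 32851 windows of 300 bases, and 1 of TTTCCCGC, TTTCGCGC, TTTGCCGC and TTTGGCGC in 2.26%. The last of these shares the letters TTGGCG with TTGGCGGG and differs after them. One of the 2 Lin54 windows also held TTGGCGGG, at -154. The CHR letters TTTGAA were found in windows of Lin54, Lin37 and Rbl2, but they are short and occurred in 17.9% of all windows. Such matches describe letters and are no evidence of binding.

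Xpo5 had a processed signal of 1310 and 1400 on the control arrays and of 137 and 135 on the arrays of cells given Xpo5 siRNA, at the probe with the highest signal. That is 10.7% of the control level, a difference of -3.23 ± 0.12 (log2, SE; limma adjusted p = 0.0107). The labels of the arrays thus match the level of the targeted gene. Between 62.4% and 65.0% of the 43379 non-control spots of an array were well above background, the scanner software's mark for a signal distinguishable from its surroundings, and none was saturated. All 12 fibroblast markers were well above background on all 4 arrays. So were 10 of 10 macrophage markers, all higher with Xpo5 siRNA (median difference 0.79), whose summed signal, in units of each array's 75th percentile, was 49.9 and 35.5 on the control arrays and 71.8 and 60.9 with Xpo5 siRNA. The part of this difference in the values below was not tested. In such bulk samples fewer cells of a type and less RNA per cell cannot be told apart.

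Of the 10 genes, 8 had a lower mean signal after Xpo5 siRNA and 2, Rb1 and Mybl1, a higher one. The count of lower genes was 9 when arrays were scaled to their medians, where Rb1 turned lower. It was 7 to 9 with 1 array left out and 6 with normexp background correction over all spots, a setting in which whole lists moved. The lowest values were at Myb and Mybl2, followed by Rbl1, Lin9 and Foxm1. The brightest Myb probe was not well above background with Xpo5 siRNA, Mybl2 was at 54.0% of its control level, Rbl1 and Lin9 were both at 65.6% and Foxm1 was at 67.8%. Rb1 was at 101%. The median difference over the 10 genes was -0.41 (log2), against 0.01 over the 13923 genes tested, of which 48.8% were lower. It moved between -0.57 without the first and -0.26 without the second Xpo5 siRNA array, and was -0.24 with normexp background correction without spots of uneven background.

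None of the 10 genes passed the test across all genes, a limma fit of the 4 arrays with Benjamini-Hochberg adjustment at 0.05. Over all genes 0.00718% were called lower, which is Xpo5 alone, and 2 genes rose. With the replicate number added as a block, so that a shift shared by both arrays of an experiment is removed, Myb and Mybl2 passed (limma adjusted p = 0.0438 for each), where 1.38% of all genes were called lower. In the fit of every kept probe neither passed with the block (0.102 for each), and over all alternatives the adjusted p of Myb ranged from 0.0438 to 0.595 and that of Mybl2 from 0.0438 to 0.643. With the slide of each array in place of the replicate number neither passed (limma adjusted p = 0.355 for Myb and 0.422 for Mybl2). At an unadjusted p under 0.05 without the block 5 of the 10 were lower (Myb, Mybl2, Lin9, Foxm1 and Rbl1), against 5.8% of all genes. The same 5 had every Xpo5 siRNA array below every control array, against 22.9% of all genes, and 8 of the 10 were lower in both experiments, against 35.2%. Myb entered these counts through the control arrays alone, since its probe was not well above background with Xpo5 siRNA, and a gene kept in that way had to differ. Of the 9 genes above background on all 4 arrays, 1 passed with the block (Mybl2), 4 were lower at an unadjusted p under 0.05, the same 4 did not overlap, 7 were lower in both experiments, and the median difference was -0.27.

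**Figure D1:**
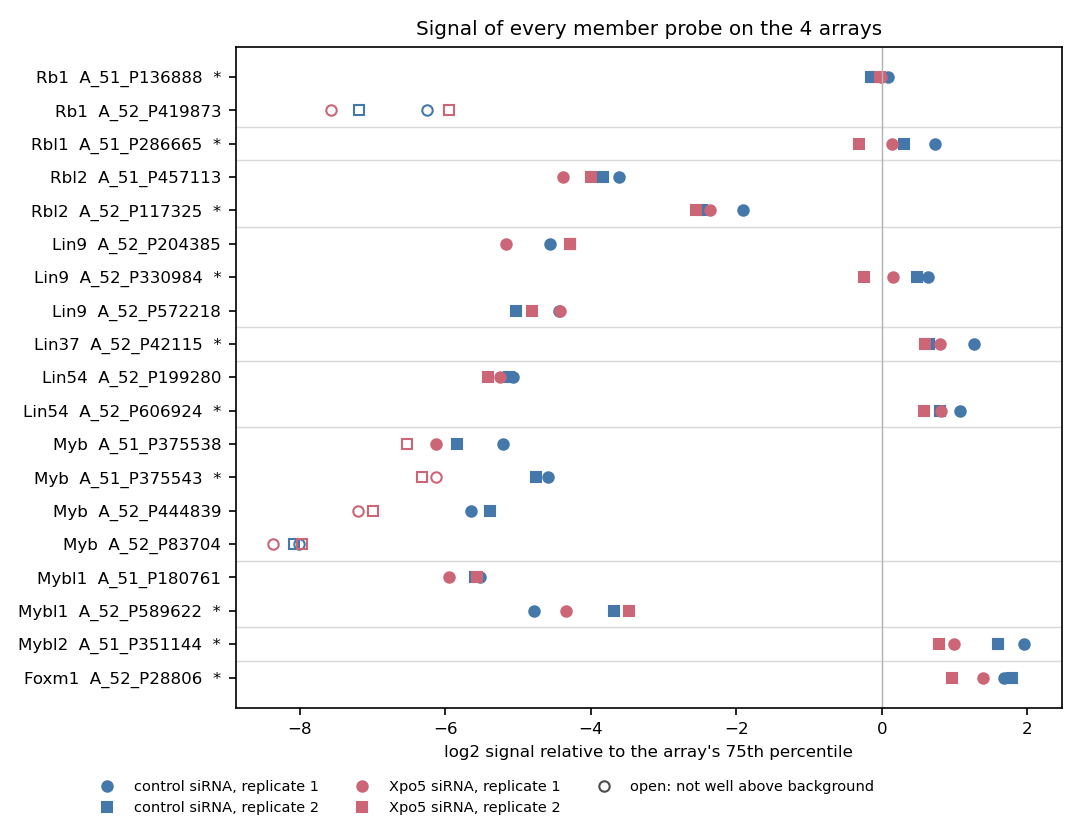
Signal of each of the 19 probes on the 4 arrays, in log2 units from the array's 75th percentile. Blue stands for control siRNA, red for Xpo5 siRNA, circles for replicate 1 and squares for replicate 2. Open symbols are values not well above background and an asterisk marks the probe that stands for its gene. The red symbols lie left of the blue ones for Rbl1, Mybl2, Foxm1 and 3 of the 4 Myb probes, while those of the bright Rb1 probe fall among the blue ones.

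Levels are given below as log2 of the processed signal minus the 75th percentile of the array over its non-control probes, so that 0 is the level of a fairly bright probe. Probes bind with different strength, and a level is compared only with the same probe on another array. Positions are on mm9, as the array files give them.

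Among the pocket proteins, Rb1 encodes pRB, the protein that holds the activator E2F proteins in check. Its probe at chr14:73595408-73595467 (minus strand) read 0.08 and -0.15 in the control arrays and -0.01 and -0.03 with Xpo5 siRNA. The groups overlapped entirely. The difference was 0.01 (95% interval -0.35 to 0.38, limma adjusted p = 0.978), and it turned to -0.10 without the second control array.

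This Rb1 probe and 1 Myb probe are printed 10 times on each array, and their spots show the technical scatter within an array. The 10 Rb1 spots spanned signals of 473 to 621 and 497 to 577 on the control arrays and of 499 to 557 and 461 to 541 on the Xpo5 siRNA arrays, with medians of 560, 531, 520 and 519. The spot ranges of the 4 arrays all overlapped. The SD between spots was 0.05 to 0.12 on the log2 scale. A second Rb1 probe, at chr14:73662360-73662419, was not well above background on any array and gives no level.

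Rbl1 encodes p107, the pocket protein that rises with proliferation. It read 0.73 and 0.30 in the control arrays and 0.14 and -0.32 with Xpo5 siRNA (chr2:156972143-156972202, minus strand). Both Xpo5 siRNA arrays lay below both control arrays, with a mean difference of -0.61 ± 0.23 (SE, n = 2 and 2; limma adjusted p = 0.334, and 0.0524 with the replicate block). The difference was -0.59 between the arrays numbered 1 and -0.62 between those numbered 2.

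Rbl2 encodes p130, the pocket protein of resting cells and of DREAM. Its brighter probe, at chr8:93647120-93647179 on the plus strand, read -1.91 and -2.47 in the control arrays and -2.36 and -2.55 with Xpo5 siRNA, which overlap. The difference was -0.27 ± 0.22 (limma adjusted p = 0.624), and 0.02 without the first control array. The second probe, at chr8:93646362-93646421, read -3.61 and -3.83 against -4.38 and -3.99. These did not overlap, and the difference was -0.46 ± 0.20 (limma adjusted p over all probes = 0.502). Both Rbl2 probes were thus lower in each experiment, by 0.45 and 0.08 at the brighter one on the log2 scale and by 0.77 and 0.16 at the other.

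Within the MuvB core, Lin9 encodes a scaffold subunit needed for the B-MYB form of the complex. Its bright probe, at chr1:182620528-182620587 on the plus strand, read 0.64 and 0.48 in the control arrays and 0.15 and -0.25 with Xpo5 siRNA. The groups did not overlap and differed by -0.61 ± 0.18 (limma adjusted p = 0.251, and 0.061 with the replicate block). The 2 dim Lin9 probes did not show this separation. The probe at chr1:182597572-182598936, whose 60 bases span 1365 bases of genome and so cross an intron, read -4.56 and -4.29 against -5.17 and -4.28, a difference of -0.30 ± 0.33. The probe at chr1:182618485-182618544 read -4.43 and -5.03 against -4.42 and -4.80, a difference of 0.12 ± 0.27. Their intervals, -1.17 to 0.57 and -0.59 to 0.83, are wide and both include 0; the first also holds the value of the bright probe and the second does not.

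Lin37 encodes the subunit known for its part in repression by DREAM. It read 1.26 and 0.65 in the control arrays and 0.80 and 0.59 with Xpo5 siRNA at a probe that spans 139 bases of genome (chr7:31340583-31340721, minus strand). The groups overlapped and differed by -0.26 ± 0.24 (limma adjusted p = 0.656). Leaving out the first control array turned the difference to 0.05.

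Lin54 encodes the DNA-binding subunit that reads the CHR element. It read 1.07 and 0.80 against 0.81 and 0.58 at its bright probe (chr5:100871322-100871381, minus strand), a difference of -0.24 ± 0.17 (limma adjusted p = 0.557). The dim probe at chr5:100913863-100913922 gave nearly the same value, -0.23 ± 0.15, from -5.07 and -5.12 against -5.24 and -5.41. Both Lin54 probes were lower in both experiments, and the groups were separate only at the dim one.

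Myb encodes c-MYB, a transcription factor best known from blood progenitors and also linked to the entry of fibroblasts into S phase. It has 4 probes, none bright. The probe printed 10 times, at chr10:20844963-20845022 on the minus strand, read -4.58 and -4.75 in the control arrays and -6.12 and -6.32 with Xpo5 siRNA. All 10 spots were well above background on each control array, with medians of 21.7 on both. On the Xpo5 siRNA arrays the medians were 6.90 and 6.69, and only 4 and 1 of 10 spots reached the mark for a signal above background, with 8 and 10 of them used. The highest spot of either Xpo5 siRNA array, 15.9, was below the lowest spot of either control array, 18.5.

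The measured difference of this Myb probe was -1.55 ± 0.15 (limma adjusted p = 0.135, and 0.0438 with the replicate block). Since it was not above background with Xpo5 siRNA, the size is a bound. A floor was set on each array at the dimmest signal that still counted as well above background, or at the probe's own value where that was higher. Against it this probe was at least 2.46-fold lower. This bound holds only for the signals as processed here, and other treatments of background and spots, given below, yielded smaller or opposite differences. The difference was -1.54 and -1.57 in the 2 experiments and -1.37 and -1.74 within the 2 slides.

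**Figure D2:**
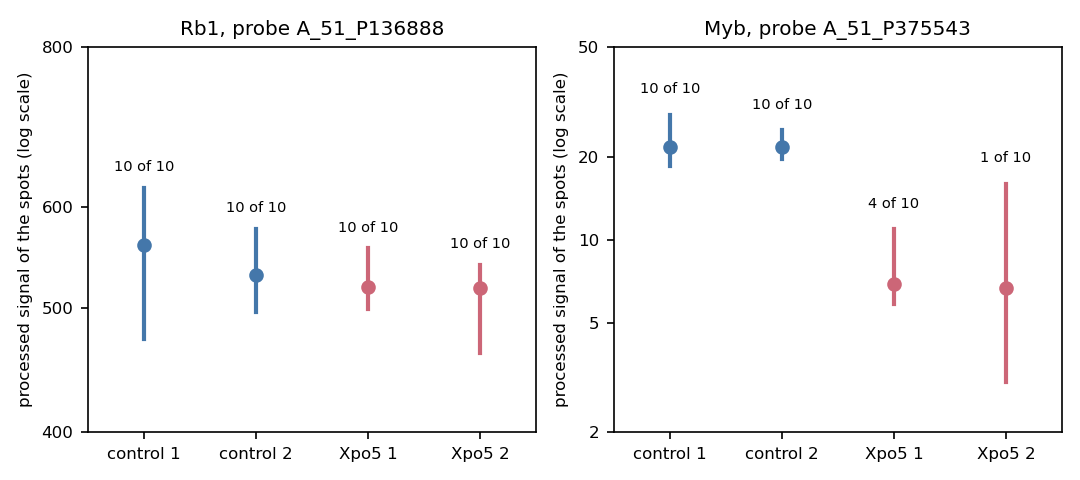
Processed signal of the 10 spots of the repeated Rb1 and Myb probes on each array, on log axes with different ranges. Bars run from the lowest to the highest spot used, dots are medians, and the numbers above give how many of the 10 spots were well above background. The Rb1 ranges overlap on all arrays, while the Myb ranges of the Xpo5 siRNA arrays lie below those of the control arrays.

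The other Myb probes lie elsewhere in the transcript and are each printed once. The one at chr10:20872381-20872440, which lies 5′ of the repeated probe on the gene's strand, read -5.65 and -5.38 against -7.20 and -6.99, a difference of -1.58 ± 0.17. It too was not above background with Xpo5 siRNA and was at least 1.41-fold lower against the same kind of floor. The one at chr10:20845222-20845280 was well above background on both control arrays and on 1 Xpo5 siRNA array, and read -5.21 and -5.84 against -6.12 and -6.52, a difference of -0.79 ± 0.28. The fourth, at chr10:20866791-20866850, was at background on all arrays. Each of the 3 Myb probes with signal was lower in both experiments, and none passed over all probes (limma adjusted p = 0.315 to 0.438). All 3 were kept through the control arrays alone, which favours probes that read lower with Xpo5 siRNA. Their shared direction is therefore no separate support.

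At this low signal both the size and the direction of the Myb difference changed with the processing. With normexp, a model of signal plus background, it was 1.35 over all spots (limma adjusted p = 0.595) and -0.20 without spots marked for uneven background (limma adjusted p = 0.484). Over all spots whole lists of genes moved too, as given at the end. Normexp was run with an offset of 50 added to every signal, more than any spot of the repeated Myb probe read. Such an offset by itself narrows differences between dim signals, and its share here was not tested. In the table deposited by the authors the Myb difference was -0.81. For the repeated probe that table equals the mean of only those spots well above background, 3.37 and 3.96 (log2) on the Xpo5 siRNA arrays, where the mean over all spots used would give 2.96 and 2.66.

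Of 13 blood progenitor markers 4 were well above background on all 4 arrays, Cd34, Gata2, Mpo and Ptprc, and 6 on none, Elane, Gata1, Gfi1, Ikzf1, Kit and Prtn3. Their summed signal was 5.91 and 4.25 on the control arrays and 8.57 and 6.37 with Xpo5 siRNA, in units of the 75th percentile. Of the 5 bright enough to be tested 4 were higher and 1 lower. Of 9 lymphoid markers 3 were above background on all arrays and 5 on none, with sums of 0.213 and 0.198 on the control arrays and 0.196 and 0.199 with Xpo5 siRNA. The 3 that were tested were lower, with a median of -0.06. The part of these markers in the Myb values was not tested.

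Mybl1 encodes A-MYB, a factor of male germ cells. Its brighter probe, at chr1:9661738-9661797 on the minus strand, read -4.78 and -3.68 in the control arrays and -4.34 and -3.47 with Xpo5 siRNA. The arrays numbered 2 were higher than those numbered 1 by 1.10 with control siRNA and by 0.87 with Xpo5 siRNA, more than the siRNAs differed. The difference between siRNAs was 0.33 ± 0.46 (95% interval -0.86 to 1.51, limma adjusted p = 0.774), and it turned to -0.23 without the first control array and to -0.11 without the second Xpo5 siRNA array. The second probe, at chr1:9666066-9666125, read -5.52 and -5.59 against -5.95 and -5.56, a difference of -0.20 ± 0.19, and did not show the gap between the experiments. No germ cell marker of 9 was above background on all arrays, and 7 were so on none.

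The Myb probe 5′ of the repeated one, which read low in the same arrays, and the 2 Mybl1 probes that differ from each other, have these 60 bases.
Myb, chr10:20872381-20872440: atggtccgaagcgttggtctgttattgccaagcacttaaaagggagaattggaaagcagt
Mybl1, chr1:9666066-9666125: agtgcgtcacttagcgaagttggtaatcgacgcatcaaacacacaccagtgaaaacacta
Mybl1, chr1:9661738-9661797: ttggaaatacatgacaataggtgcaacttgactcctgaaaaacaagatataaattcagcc

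Mybl2 encodes B-MYB, the partner of MuvB in the activating complex. At chr2:162909169-162909226 on the plus strand its signal was 2050 and 1770 on the control arrays and 1050 and 894 with Xpo5 siRNA, levels of 1.96 and 1.60 against 0.99 and 0.79. Both Xpo5 siRNA arrays were clearly below both control arrays. The difference was -0.89 ± 0.18 (limma adjusted p = 0.167, and 0.0438 with the replicate number as block). It was -0.97 and -0.81 in the 2 experiments and -0.61 and -1.17 within the 2 slides. Mybl2 had the lowest p of the 9 genes that were above background on all arrays.

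Foxm1 encodes the forkhead factor that joins MuvB in G2. Its signal was 1700 and 2030 on the control arrays and 1390 and 1010 with Xpo5 siRNA, levels of 1.68 and 1.79 against 1.39 and 0.96 (chr6:128324783-128324842, plus strand). The groups did not overlap and differed by -0.56 ± 0.19 (limma adjusted p = 0.287, and 0.116 with the replicate block). In the first experiment the difference was -0.29 and in the second -0.83, so that the arrays numbered 2 carry most of it.

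**Figure D3:**
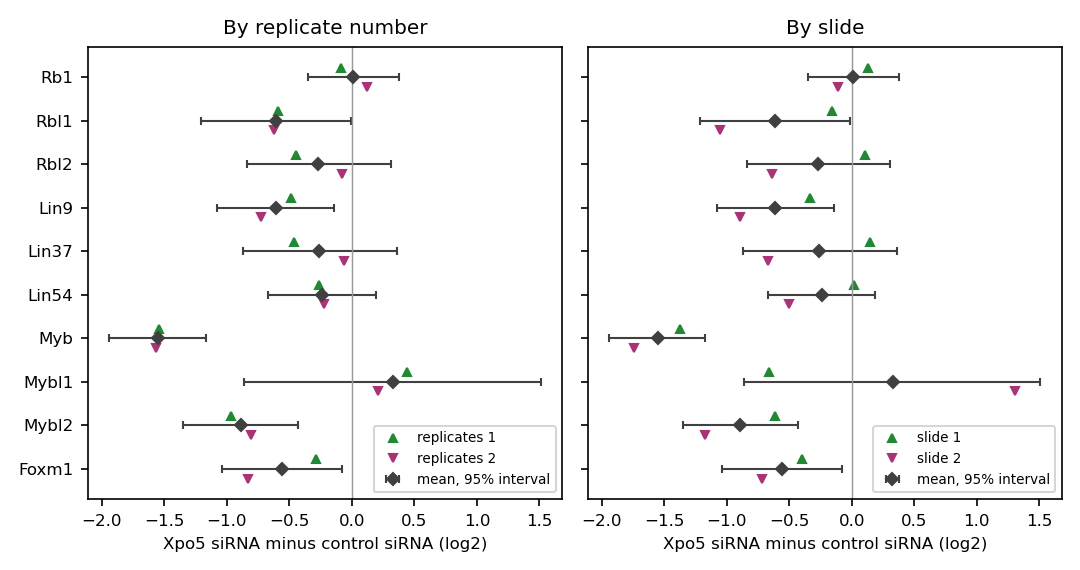
Difference between Xpo5 siRNA and control siRNA (log2) of the probe that stands for each gene. Diamonds are means of 2 arrays a group with the 95% interval of the limma fit, and triangles are single pairs of arrays, paired by replicate number on the left and by slide on the right. Paired by number, all genes but Rb1 and Mybl1 lie below 0 in both pairs, whereas by slide Rb1, Rbl2, Lin37 and Lin54 are above 0 on slide 1.

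Each slide carried 1 array of each siRNA with different replicate numbers, so a difference within a slide also holds the gap between the experiments. The median over the 10 genes was -0.25 within slide 1 and -0.70 within slide 2, and -0.45 and -0.42 within the experiments. Rbl1, Lin9, Myb, Mybl2 and Foxm1 were lower within both slides and within both experiments. For Rbl1 the 2 slides gave -0.16 and -1.05.

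The list called partners here held 13 genes, those of the E2F and DP families, further MuvB subunits and Rbbp7. Their transcripts were read, not their proteins or binding. Of these 10 were lower and 3 higher (12 lower with median scaling), with a median of -0.32 (-0.18 without the first control array). Without overlap of the groups 9 were lower (22.9% of all genes) and 1 higher (3439 of 13916 genes). None passed without the block, 5 were lower at an unadjusted p under 0.05 (5.8% of all genes), and 3 fell with the block (1.38%). They were E2f2, an activator E2F, at -0.70 (limma adjusted p = 0.0462 with the block, 0.202 without), the repressor E2f7 at -0.81 (0.0456 and 0.162) and Tfdp1, the DP subunit that pairs with E2F proteins, at -0.90 (0.0456 and 0.269). The signal of Tfdp1 was 4530 and 3100 on the control arrays and 2220 and 1610 with Xpo5 siRNA, and that of E2f7 was 1180 and 1080 against 646 and 568. Both pairs of Xpo5 siRNA arrays lay below the control arrays, and the second probe of each gene read -0.69.

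E2f3, another activator, was at -0.61 ± 0.14 with its other probes at -0.25 and -0.19, and E2f8, a repressor like E2f7, at -0.64 ± 0.23, without passing in either fit. E2f1, the founding activator E2F, was split between its probes. The one that stands for it was at 0.04 ± 0.27, with -0.15 and 0.22 in the experiments. The other, printed 10 times, was at -0.34 ± 0.16 without overlap of the groups (limma adjusted p over all probes = 0.536). E2f4, which joins p130 and p107 in DREAM, was at -0.59 ± 0.24 (limma adjusted p = 0.363), and E2f5 at -0.11 ± 0.13. Of the other MuvB subunit genes, Lin52 was at -0.17 ± 0.14 and Rbbp4, which encodes a histone-binding subunit, at -0.32 ± 0.18 with its other probes at -0.19 to -0.04. Rbbp7, a close relative of Rbbp4, was at -0.13 ± 0.14, and none of the 3 passed. E2f6 and Tfdp2 were among the 3 higher genes with E2f1, at 0.08 and 0.20. The other E2f6 probe was higher by more, at 1.02 without overlap of the groups, whereas the other Tfdp2 probes were lower, at -0.49 to -0.03.

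A list of 18 genes held cyclins, kinases and inhibitors around the pocket proteins, and also Skp2. Of these 18 genes 12 were lower and 6 higher, with a median of -0.12 (-0.06 without the second control array and -0.19 without the second Xpo5 siRNA array). In limma none passed without the block, with 4 lower (5.8% of all genes) and 1 higher (1235 of 13923 genes) at an unadjusted p under 0.05. The groups did not overlap for 7 lower genes (22.9% of all genes) and 5 higher ones (3439 of 13916 genes). Ccne2, a cyclin E gene, and Skp2, which targets the inhibitor p27 for degradation, fell with the replicate block, where 1.38% of all genes did. Ccne2 read 209 and 233 on the control arrays against 116 and 117 with Xpo5 siRNA, a difference of -0.83 ± 0.12 (limma adjusted p = 0.0438 with the block, 0.144 without). Skp2 was at -0.81 ± 0.13 (0.0456 and 0.149). Ccne1 was at -0.51 ± 0.16 and the inhibitor Cdkn2b, p15, at 0.57 ± 0.15, from 7740 and 7720 to 10200 and 11400, and neither passed in either fit. The list thus held values in both directions, with its 2 calls at a cyclin E and at Skp2.

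The genes that the pocket proteins and E2F control at the entry into S phase were read from a list of 35. All 35 were lower (34 with quantile normalization or normexp, 33 without the second control array), with a median of -0.47. Of them 32 did not overlap between the groups, against 22.9% of all genes, and 22 were at an unadjusted p under 0.05, against 5.8%. This list, like the others, was chosen with earlier results of these data known, so such shares are no independent test. Their median was -0.42 in the first experiment and -0.53 in the second, and -0.33 and -0.57 by slide. None passed without the block and 4 fell with it, against 1.38% of all genes. The examples with the lowest p were Fbxo5, whose product restrains the anaphase-promoting complex, at -0.68 ± 0.13 (limma adjusted p = 0.162, and 0.0482 with the block) and Cdc6, which loads the replicative helicase, at -0.84 ± 0.16 (0.162 and 0.0456), although the other Cdc6 probe was at -0.30. Rpa2, a single-strand DNA-binding subunit, was at -0.62 ± 0.13 and Prim1, a primase subunit, at -0.61 ± 0.13, neither of which passed.

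The late genes bound by MuvB with B-MYB or FOXM1 were read from a list of 37. Of these 35 were lower and 2 higher (32 lower without the second control array), 26 of them lower without overlap (22.9% of all genes), with a median of -0.34 and medians of -0.24 and -0.42 within the experiments. Cdca3, which promotes entry into mitosis, read 7270 and 7120 on the control arrays and 4640 and 4000 with Xpo5 siRNA. In limma none of the 37 passed without the block, against 14 lower at an unadjusted p under 0.05 (5.8% of all genes), and Cdca3 fell with it (1.38%), at -0.65 ± 0.15 (limma adjusted p = 0.0486, and 0.182 without). Ccnb1, the gene of cyclin B1, was at -0.47 ± 0.14, Ckap2, a spindle protein gene, at -0.46 ± 0.13 with its other probe at -0.23, and Dlgap5, which binds mitotic microtubules, at -0.51 ± 0.13, although its second probe was at -0.07. The 2 higher genes, named after their values were seen, were Ect2 at 0.45 and Cks1b at 0.00. Differences between the lists were not tested.

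**Figure D4:**
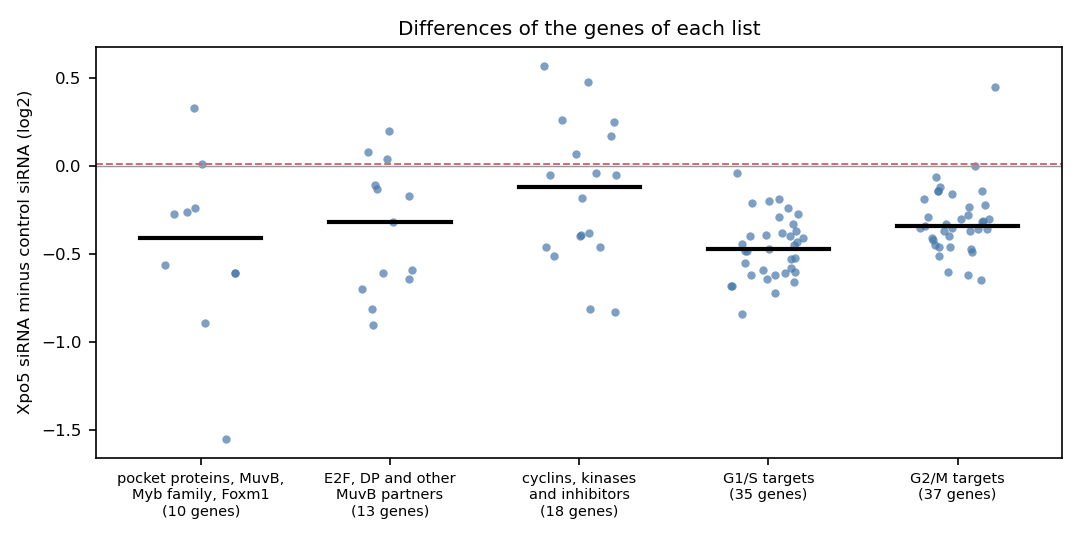
Difference between Xpo5 siRNA and control siRNA (log2) of each gene of the 5 lists, with black bars at the list medians and a dashed line at the median of all genes tested. The medians were -0.41, -0.32, -0.12, -0.47 and -0.34 from left to right, and all 35 G1/S genes lie below 0 with this scaling (34 with quantile normalization).

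The E2F and CHR motifs were unevenly spread over the 2 target lists, a description of sequence that was not tested. In the windows described above, 13 of 30 G1/S genes with a promoter entry held 1 of the 4 TTT forms and 5 held TTGGCGGG, against 1 and 0 of 32 G2/M genes. TTTGAA was in 23 of the 32 G2/M windows and in 5 of the 30 G1/S ones. Counted per gene over 27025 genes, the shares were 2.60%, 1.10% and 20.2%.

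The genes whose profile over the 4 arrays was most like that of Mybl2 were Coil, Gpd1l and Mt2, with root mean square differences of 0.0273, 0.0280 and 0.0333 (log2) between profiles centred on their means, where the median of 13429 genes was 0.479. For Foxm1 they were Rad54b at 0.0194, Haspin at 0.0392 and Npcd at 0.0398, where the median gene was at 0.346. With 4 arrays many genes can share a profile, and these are given as a description. Rad54b, a recombination gene, read -0.40 and -0.26 in the control arrays and -0.71 and -1.14 with Xpo5 siRNA, which repeats the larger gap of Foxm1 in the second experiment. Haspin, a mitotic histone kinase, differed by -0.52.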

How the data were processed

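RNA of 4 samples of mouse embryonic fibroblasts, 2 per siRNA, was read on 1-colour Agilent arrays. Per the file headers, the deposited intensity of each spot was made with Agilent Feature Extraction 10.5.1.1, background-subtracted and spatially detrended, with no scaling between arrays. The authors also deposited a table of log2 values of the same arrays, used here only as an alternative. Per the file headers probe positions are on mm9. Of 41174 non-control probes 26690 were named by accession, 5189 by symbol and 952 by synonym through the RefSeq table of GRCm38.p6, and 8343 were left unnamed.

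Spots flagged as outliers (77 to 134 per array) were left out, the log2 intensities of a probe's spots were averaged and the array's 75th percentile was subtracted. A probe was well above background on an array where at least 50% of its spots were, and was kept where this held on both arrays of a group, which left 25642 testable probes. The probe with the highest mean signal stood for its gene. Of the 19 probes of the 10 genes, 17 were kept and 14 were well above background on all 4 arrays. Differences were tested with limma 3.58.1 in R 4.3.3 (lmFit, eBayes, two-sided, Benjamini-Hochberg over all 13923 genes, or over all probes where a second probe is tested). The number of arrays limits the precision, with 2 residual degrees of freedom, or 1 with the replicate block. The fit without the block was tested on simulated data in which all arrays scattered independently. The fit with the replicate block was not tested in this way.

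The numbers 1 and 2 were taken to stand for the 2 independent experiments of the series text, which no label states outright. Arrays of the same number deviated from their group means together (r = 0.451 across 13916 genes, which are not independent replicates). The genes, lists and alternatives were chosen with earlier results of these data known. Named were all probes of the 10 genes, Xpo5, any partner, up to 4 genes of each other list with the smallest unadjusted p, and the 3 profiles nearest to Mybl2 and to Foxm1.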

Additional observations from a re-analysis of the deposited data

How the results depend on the processing

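The 10 genes kept 0 calls under every alternative run but the replicate block, where 2 passed. With the block 607 genes and 4 probes passed in place of 3 and 0, and 3 partners, 2 genes of the kinase list, 4 G1/S genes and 1 G2/M gene. The number of genes passing was 0 with normexp and with no filter on dim probes, 1 when probes had to be above background on all arrays and with the mean of a gene's probes, 8 with median scaling and in the deposited table, and 0 to 26 when 1 array was left out. The number of probes passing was 1 with an intensity trend and with normexp without spots of uneven background, and 10 with median scaling and in the deposited table. Xpo5 was lower in all, at -3.25 to -3.20 with 1 array left out (adjusted p = 0.0624 without the first Xpo5 siRNA array), -3.26 and -3.20 within the experiments, -3.23 with no filter (0.168), -2.55 with the mean of its probes (0.149) and -2.08 with normexp (0.595). Median scaling and the deposited table moved the median of all genes to -0.10 and Rb1 to -0.09, so that relative to that shift Rb1 stayed near 0. With normexp over all spots Rbl2 was at 0.85 and Myb at 1.35, against -0.09 and -0.20 once spots with uneven background were left out. Whole lists moved in that first setting, with medians of -1.09 for the fibroblast markers and -1.29 for the G1/S genes. The tested blood progenitor and lymphoid markers were at 1.25 and 1.30, and all genes at -0.16. Without those spots these medians were 0.11, -0.43, 0.18, -0.00 and 0.02 in the same order. The cause was not tested. With 1 array left out Rb1 ranged from -0.10 (without the second control) to 0.13, Rbl2 from -0.55 to 0.02 and Lin37 from -0.56 to 0.05 (both highest without the first control), and Mybl1 from -0.23 (without the first control) and -0.11 (without the second Xpo5 siRNA array) to 0.88. Rbl1, Lin9, Lin54, Mybl2 and Foxm1 kept their direction under all 15 alternatives fitted. For Myb and Mybl1, signal near background limits what can be measured.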
